A study of Mus musculus with 4 samples.

Results

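The promoters of the mouse zinc finger protein genes named Zfp and a number made up 343 of the 26354 promoters in the deposited table of H3K9me2 ChIP-seq reads. Members were taken by gene symbol, and the promoters of Zfp36, Zfp36l1, Zfp36l2 and Zfp36l3 were left out, since these symbols name RNA-binding proteins of another finger type. No measured value entered the choice. Most of the chosen genes encode proteins with C2H2 zinc fingers, in which 2 cysteines and 2 histidines hold a zinc ion and the finger reads DNA, but the name is shared by a few unrelated proteins, and 10 of the 339 members with a protein sequence had no match to a C2H2 finger.

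H3K9me2 is dimethylated lysine 9 of histone H3, a repressive mark that the enzymes Ehmt2 (also called G9a) and Ehmt1 (GLP) place over inactive euchromatic regions. The largest class of C2H2 proteins carries a KRAB box, a short domain that binds the co-repressor Trim28 and through it the H3K9 methyltransferase Setdb1, and many of these proteins silence transposable elements. KRAB zinc finger genes arose by repeated tandem duplication and lie side by side in clusters, and in other cell types the gene bodies of such clusters, at their finger-coding ends, are known to carry H3K9me3.

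The chromatin came from male mice of the C57Bl/6J strain with no introduced allele named in the labels. It was taken from the medial layer of the aorta, which was fixed in formaldehyde after fat, adventitia and endothelium had been removed. There was no treatment, disease model or second cell type, and the contrast was H3K9me2 ChIP against the input chromatin of the same experiment. The 2 experiments, numbered v102 and v134, gave 1 ChIP and 1 input library each, so 4 libraries in all, and neither the animals per experiment nor their age is given in the labels. Reads were counted by the authors within 1 kb on both sides of each transcription start site.

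Over the table the ChIP libraries held 162233 (v102) and 229605 (v134) promoter reads and the input libraries 619100 and 1084349. The median member had 4 and 6 ChIP reads against 20 and 37 in input, so single promoters rested on few reads. No RNA was measured, so the cell type could be read at promoters alone: those of 5 smooth muscle genes (Acta2, Myh11, Tagln, Cnn1, Myocd) had a median log2 ratio of -1.60 and those of 3 leukocyte genes (Ptprc, Cd3e, Itgam) of 1.35. Promoters of 3 endothelial genes (Cdh5, Pecam1, Tek) had a median of -0.19 and those of 2 fibroblast genes (Pdgfra, Lum) of -1.06, so these promoters did not set smooth muscle apart from every other cell type. Mitochondrial rows took 14.3% (v102) and 7.53% (v134) of input promoter reads but 0.200% and 0.175% of ChIP promoter reads, which moves the zero of any ratio scaled by these totals, and members are therefore set beside all promoters throughout.

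The promoters that marked both ends of the range are shown first, so that their letters can be read beside the values that follow. The first 3 shown (Zfp518a, Zfp352, Zfp445) were called above input, and the other 3 (Zfp786, Zfp687, Zfp423) below it. Each run holds 250 bases before and 50 bases from the RefSeq start, 5′ to 3′ on the gene's strand (GRCm38.p6), with CG dinucleotides in capitals. Zfp518a lies at chr19:40894455-40894754 (plus strand), Zfp352 at chr4:90218570-90218869 (plus), Zfp445 at chr9:122865957-122866256 (minus), Zfp786 at chr6:47830456-47830755 (minus), Zfp687 at chr3:95015408-95015707 (minus) and Zfp423 at chr8:87959546-87959845 (minus).
Zfp518a: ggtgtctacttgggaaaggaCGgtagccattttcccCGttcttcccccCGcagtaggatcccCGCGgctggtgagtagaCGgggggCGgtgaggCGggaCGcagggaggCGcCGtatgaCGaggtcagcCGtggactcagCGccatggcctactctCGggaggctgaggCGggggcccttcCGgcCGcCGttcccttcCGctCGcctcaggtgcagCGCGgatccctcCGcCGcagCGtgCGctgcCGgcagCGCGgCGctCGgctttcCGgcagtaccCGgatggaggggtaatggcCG
Zfp352: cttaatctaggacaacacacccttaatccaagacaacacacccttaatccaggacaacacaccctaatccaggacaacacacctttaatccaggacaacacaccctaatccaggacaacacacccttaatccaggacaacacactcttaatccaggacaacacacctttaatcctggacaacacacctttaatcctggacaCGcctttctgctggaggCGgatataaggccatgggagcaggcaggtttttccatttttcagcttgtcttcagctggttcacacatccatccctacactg
Zfp445: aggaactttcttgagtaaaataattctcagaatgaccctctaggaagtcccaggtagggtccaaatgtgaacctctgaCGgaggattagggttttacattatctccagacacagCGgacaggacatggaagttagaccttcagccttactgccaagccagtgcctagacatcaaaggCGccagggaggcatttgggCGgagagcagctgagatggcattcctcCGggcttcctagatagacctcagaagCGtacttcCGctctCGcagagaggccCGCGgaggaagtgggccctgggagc
Zfp786: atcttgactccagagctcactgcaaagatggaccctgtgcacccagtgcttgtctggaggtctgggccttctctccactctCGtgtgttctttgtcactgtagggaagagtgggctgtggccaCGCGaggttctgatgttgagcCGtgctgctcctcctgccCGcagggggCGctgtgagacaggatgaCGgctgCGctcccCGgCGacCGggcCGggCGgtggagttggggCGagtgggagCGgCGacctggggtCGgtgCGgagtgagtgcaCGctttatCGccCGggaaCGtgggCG
Zfp687: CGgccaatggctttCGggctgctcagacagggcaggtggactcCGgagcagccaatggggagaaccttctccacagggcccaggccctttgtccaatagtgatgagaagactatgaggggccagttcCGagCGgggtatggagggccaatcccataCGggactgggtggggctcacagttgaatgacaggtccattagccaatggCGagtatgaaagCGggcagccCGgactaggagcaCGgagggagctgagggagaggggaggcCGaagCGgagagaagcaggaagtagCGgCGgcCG
Zfp423: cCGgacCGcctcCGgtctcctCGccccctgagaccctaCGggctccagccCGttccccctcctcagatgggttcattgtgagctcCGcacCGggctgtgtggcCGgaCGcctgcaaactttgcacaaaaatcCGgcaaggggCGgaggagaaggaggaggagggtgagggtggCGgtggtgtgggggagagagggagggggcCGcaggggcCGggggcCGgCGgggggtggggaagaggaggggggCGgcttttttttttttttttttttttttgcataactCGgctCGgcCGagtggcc

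The Zfp518a run holds 35 CG dinucleotides, the Zfp352 run 2 and the Zfp445 run 10, so these high promoters did not share a CG content. The Zfp352 run is a tandem array in which the 8-base word acaacaca occurs 9 times. The low promoters held 23 (Zfp786), 15 (Zfp687) and 21 (Zfp423). The RefSeq and GENCODE starts were the same base for 4 of the 6 genes and differed by 9 bases for Zfp687 and 362 bases for Zfp786. A RefSeq promoter was found for 282 members, whose median was 15 CG dinucleotides, equal to the median of 15 over 16501 promoters of the table. It was 11 in the 161 with a KRAB protein and 20 in the 120 without.

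H3K9me2 at Zfp promoters lay near the middle of the genome-wide range. In each experiment the log2 ratio was taken between ChIP and input reads, each with 1 read added and divided by its library's promoter total, and averaged over the 2 experiments. The median member stood at -0.19 (v102 -0.16, v134 -0.12), against -0.31 (-0.11, -0.38) for all promoters, which is the 53.5th percentile. Members exceeded the median of all promoters in v134 but not in v102. The summed reads of the members gave a scaled ChIP to input ratio of 0.93 in v102 and 1.07 in v134, and the other non-mitochondrial promoters gave 1.17 and 1.08.

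The spread of the members was narrower than that of all promoters, above all at the top. Their quartiles were -0.99 and 0.60, against -1.16 and 0.66 for all promoters, and their 5th and 95th percentiles were -1.88 and 1.41, against -2.13 and 1.93. Of the 343, 196 (57.1%) lay in the middle 50% of all promoters. The top decile of all promoters held 11 members (3.21%) and the top 5% held 5, while the bottom decile held 24. The most members, 51 (14.9%), lay in the eighth decile. The values in the 2 experiments had a Spearman correlation of 0.64 over the 343 members and 0.69 over all promoters, and the median SD between experiments at a member was 0.50.

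**Figure D1:**
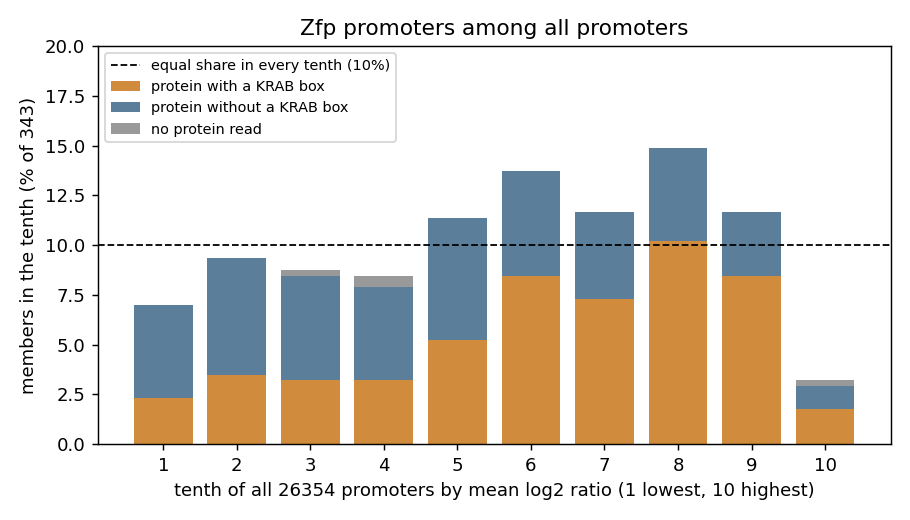
Share of the 343 Zfp promoters (y axis, %) that lies in each decile of all 26354 promoters, ranked by mean log2 ratio of ChIP to input (x axis). Bars are split by whether the protein carries a KRAB box and the dashed line marks 10%. The top decile holds 3.21% of the members and the eighth 14.9%.

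By the quasi-likelihood test of edgeR, fitted on the whole table with p adjusted by Benjamini-Hochberg, 49 members (14.3%) were called above input at an adjusted p under 0.05, where 18.6% of all promoters were. In the other direction 51 members (14.9%) were called below input, where 17% of all promoters were. Both shares lay below those among all promoters, and 243 members were not called either way. With at least 20 reads required of each input, which 185 members passed, the order turned for calls above input (44 members, 23.8%, against 17.5% of all promoters) and held for calls below (16 members, 8.65%, against 12%). Of the 44, only 26 were among the 49 called above without that minimum, while all 16 were among the 51 called below. With the experiment number as a block, 38 members were above (15.8% of all promoters) and 20 below (8.3% of all promoters), and all of these were among the calls without the block. In the top quartile of both experiments lay 39 members (11.4%), where 17.9% of all promoters did. That difference did not hold with the stricter minimum (18.9% of members, 16.8% of all promoters) or with the trend on GC content removed (14.3% and 13.95%).

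**Figure D2:**
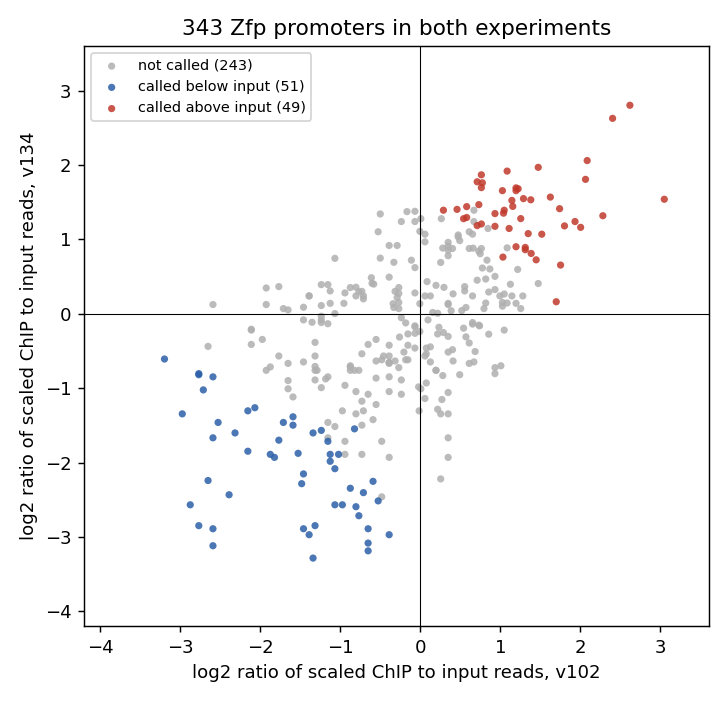
Log2 ratio of scaled ChIP to input reads in experiment v102 (x axis) and v134 (y axis) at each Zfp promoter, coloured by the edgeR call. The 49 members called above input lie toward the upper right and the 51 called below input toward the lower left, with 243 uncalled members between them.

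The highest member was Zfp518a on chromosome 19, a C2H2 gene without a KRAB box whose paralog Zfp518b is known as a partner of Ehmt2. Its promoter had 36 (v102) and 64 (v134) ChIP reads against 22 and 43 in input. It was the only one of the 10 highest with a CpG-rich window, that is, at least 50% GC and an observed to expected CpG ratio of at least 0.6 over the window. ChIP exceeded input before scaling in both experiments, and the log2 fold change was 2.87 ± 0.34 (SE; edgeR adjusted p = 1.11e-14, from 2 against 2 libraries). The promoter of Zfp518b itself had a log2 ratio of -0.63 and was not called.

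Zfp352, a gene known for its expression in the early embryo, was the next highest and is the tandem array shown above. It had 17 and 33 ChIP reads against 12 and 25 in input, again with ChIP above input before scaling in both experiments, and a log2 fold change of 2.68 ± 0.40 (edgeR adjusted p = 1.21e-09). Repeat-masked sequence covered 64.8% of its window, more than 50%, which held for 6 members in all. The median of those 6 was -0.05, against 0.65 for the 373 promoters of the table with as much repeat sequence.

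Zfp42, also called Rex1 and used as a marker of pluripotent cells, had 13 and 18 ChIP reads against 10 and 35 in input. The log2 fold change was 1.75 ± 0.43 (edgeR adjusted p = 0.000488). ChIP exceeded input before scaling in v102 alone, and after scaling in both experiments (log2 ratios 2.28 and 1.32). Zfp828, now named Champ1 and known for its part in attaching chromosomes to the spindle, had 22 and 39 ChIP reads against 20 and 53 in input (2.02 ± 0.35, adjusted p = 2.5e-07).

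KRAB genes outside clusters were also among the highest. Zfp445, which with Zfp57 keeps the methylation of imprinted regions through early development, had 20 and 26 ChIP reads against 25 and 42 in input (1.71 ± 0.37, adjusted p = 6.48e-05). Zfp951 had 12 and 15 ChIP reads against 5 and 25 in input, and its log2 ratios of 3.05 and 1.54 lay farther apart than those of any other of the 10. Zfp286 had 15 and 28 ChIP reads against 21 and 34 in input (1.88 ± 0.39, adjusted p = 2.12e-05). The remaining members of the 10 were Zfp353, Zfp707 and Zfp709, with log2 fold changes of 2.19, 1.68 and 1.69, and the call for Zfp709 was lost with the block (adjusted p = 0.0188 without it and 0.0751 with it).

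At the other end, 5 members had no ChIP read in either library: Zfp786, Zfp687, Zfp397, Zfp703 and Zfp275. Zfp703, known as a transcriptional repressor overexpressed in some breast tumours, had 27 input reads in each experiment. With a floor of 3 ChIP reads over both libraries, its scaled ChIP signal was at least 4.14-fold lower than input (adjusted p = 0.000817, 0.011 with the block). The same bounds were 4.75-fold for Zfp786 (22 and 40 input reads), 4.45-fold for Zfp687 (25 and 33), 4.29-fold for Zfp397 (22 and 34) and 1.61-fold for Zfp275 (8 and 13). The call for Zfp275 was lost with the block (adjusted p = 0.153). In all, 62 members had 3 ChIP reads or fewer in the sum of both libraries.

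Single ChIP reads were found at Zfp219, a cofactor of Sox9 in cartilage, at Zfp91, a ubiquitin ligase, at Zfp423, a regulator of preadipocyte commitment, and at Zfp276 and Zfp212. Zfp423 had 1 and 0 ChIP reads against 20 and 34 in input, a scaled ratio of 0.081 with an exact 95% interval from 0.002 to 0.468. The interval covers counting error only. Zfp219 had 0 and 1 ChIP reads against 19 and 50 in input, a scaled ratio of 0.063 (0.002 to 0.363). Of the 10 lowest called members, 7 had CpG-rich windows and 8 encode proteins without a KRAB box.

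The other 39 members called above input had 19 to 50 ChIP reads in the sum of both libraries, with log2 fold changes between 0.95 (Zfp157) and 1.64 (Zfp182). Of these, 29 carry a KRAB box, 13 lie in clusters and 2 have a CpG-rich window. The other 41 called below input had 1 to 7 ChIP reads in the sum against 36 to 94 input reads, and scaled ratios between 0.085 and 0.324. Of these, 14 carry a KRAB box, 10 lie in clusters and 22 have a CpG-rich window. The 243 uncalled members had a median of 10 ChIP reads in the sum.

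**Figure D3:**
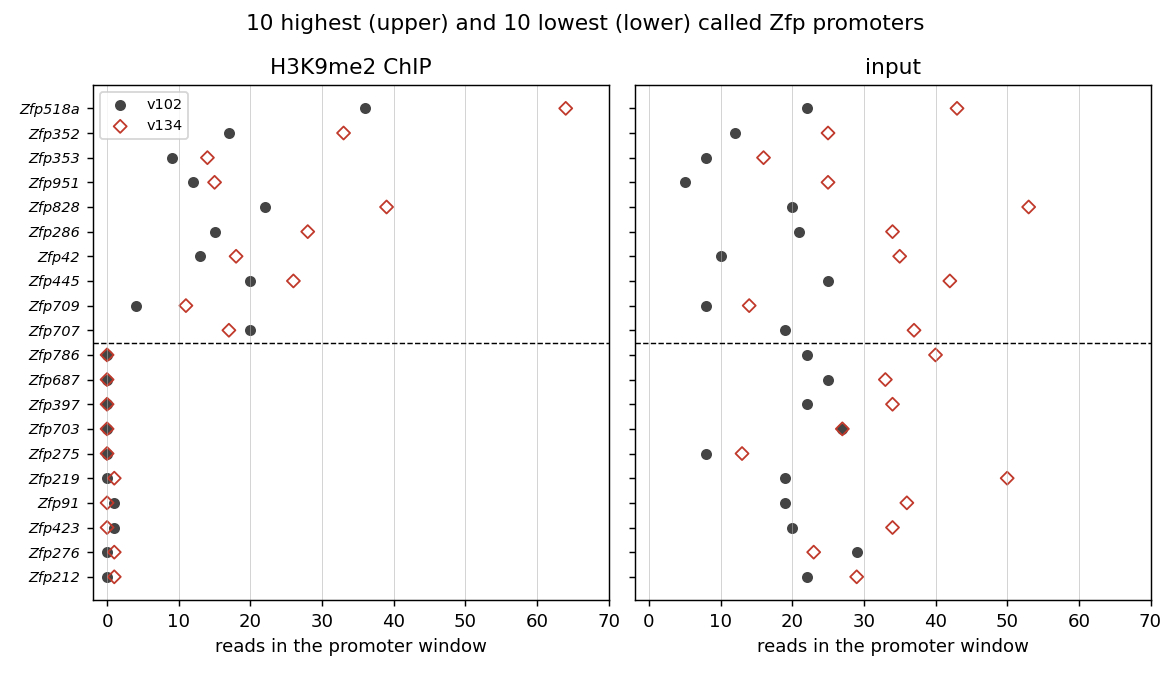
Reads in the promoter window (x axis) in the H3K9me2 ChIP (left) and input (right) libraries of both experiments for the 10 highest and 10 lowest called members (y axis). The upper 10 have between 4 and 64 ChIP reads, the lower 10 have 0 or 1 in each library, and input reads of both sets overlap.

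The rows around these promoters differed from one high member to the next. The 3 rows before and the 3 rows after each of the 20 members were read for this purpose, a choice made after their values were seen. Zfp518a stood alone: its 6 neighbouring rows had a median log2 ratio of -0.75, none was called above input and 2 were called below. These 2, Tctn3 and Entpd1, started at -282 kb, and their windows overlap, so they rest on nearly the same reads. Zfp286 stood between rows with a median of -1.93, of which 4 were called below input and none above. Zfp828 had a neighbour median of -0.06 and no neighbour called above. Zfp352, in contrast, lay among rows with high ratios, with a neighbour median of 1.84 and 5 of 6 neighbours called above. These rows were far apart: Gm12629 started at -33.3 kb from Zfp352, and the other placed ones at -797, -539, 1182 and 1408 kb. Zfp42 had a neighbour median of 1.19 with 4 of 6 called above. Counting each row once and leaving out the members themselves, 13 of the 57 rows around the 10 high members were called above and 9 below, and 6 of the 56 rows around the 10 low members were called above and 16 below. Of all promoters, 18.6% were called above and 17% below. Rows with overlapping windows were not left out of these counts. Among the rows called below, Lpxn started 0.067 kb from Zfp91 and 4930481B07Rik 0.177 kb from Zfp687. Their windows share reads with those of these 2 members.

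Rows of the table follow the genome, so runs of neighbouring members could be read from it. A cluster was taken as at least 4 members with at most 2 other rows between one and the next. There were 16 such clusters with 117 members, 30 runs of 2 or 3 with 68 members, and 158 members alone. Chromosome 7 held 6 clusters, chromosome 17 held 3, and chromosomes 8 and 9 held 2 each. With no other row allowed between members there were 12 clusters with 65 members. Clustered members had a median log2 ratio of 0.02 with 14 called above (11.97%) and 12 below input (10.3%). Members in short runs had 0.00 (13 above, 19.1%, and 11 below, 16.2%). Members alone had -0.42 (22 above, 13.9%, and 28 below, 17.7%). The shares over all promoters were 18.6% above and 17% below. CpG-rich windows were found at 11 of the 117 clustered members (9.40%) and at 64 of the 158 alone (40.5%), and among members without CpG-rich windows the medians were 0.08 inside clusters and 0.04 outside.

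The lowest cluster was on chromosome 6, from Zfp786 to Zfp746, with 7 KRAB genes over 256 kb (GRCm38). Its median log2 ratio was -1.55 (v102 -1.13, v134 -1.67), and its summed reads gave scaled ratios of 0.33 and 0.38. Of its 7 members 4 were called below input and none above, and 3 were below with the block. Zfp786 had 0 ChIP reads, Zfp212 had 0 and 1, Zfp777 had 1 and 0, and Zfp956 had 2 and 2. The other 3, Zfp398, Zfp282 and Zfp746, were not called. Zfp282 was the highest with 5 and 5 ChIP reads against 14 and 44 in input, a log2 ratio of -0.03. It is the cluster with the most CpG-rich windows, 5 of 7. With the GC trend removed its median was -0.85 and the chromosome 17 clusters from Zfp760 to Zfp40 (-1.36) and from Zfp677 to Zfp948 (-1.29) were lower, and with the stricter minimum the chromosome 7 cluster from Zfp768 to Zfp689 was lower (-1.73).

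The highest cluster was on chromosome 8, from Zfp709 to Zfp961, with 4 KRAB genes over 69.0 kb and no other row among them. Its median log2 ratio was 1.43 (1.14 and 1.67), and its summed reads gave scaled ratios of 2.10 and 2.50. Zfp882 had 11 and 25 ChIP reads against 19 and 38 in input, with a log2 fold change of 1.59 ± 0.40 (adjusted p = 0.000708). Zfp617 had the same ChIP reads and 19 and 37 input reads. Their windows overlap at the GENCODE starts, so these 2 calls rest on nearly the same reads. The same 2 are the middle values of the 4, so the cluster median rests on them, and the summed ratios count these reads more than once. The median was 1.03 over members without overlapping windows and 1.05 with the GC trend removed, in each case still the highest of the clusters. Zfp709 was called without the block alone, and Zfp961, with 7 and 9 ChIP reads against 14 and 43 in input, was not called (adjusted p = 0.475).

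Next in order came clusters on chromosomes 17, 7 and 8. The chromosome 17 cluster from Zfp871 to Zfp563 (8 members, median 0.75) had 2 members above input and none below, with scaled ratios of 1.48 in both experiments. The chromosome 7 cluster from Zfp180 to Zfp94 (10 KRAB genes, median 0.60) had 2 above, Zfp114 and Zfp93, and none below, with scaled ratios of 1.48 and 1.41. Zfp114 had 20 and 23 ChIP reads against 22 and 49 in input (1.56 ± 0.38). The chromosome 8 cluster from Zfp868 to Zfp866 (5 members, median 0.57) had no call. In the chromosome 7 cluster from Zfp60 to Zfp850 (6 members, median 0.41) the experiments differed, with scaled ratios of 1.79 in v102 and 0.83 in v134, and its 1 call, Zfp850, was lost with the block (adjusted p = 0.074).

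The largest cluster, 20 KRAB genes over 753 kb of chromosome 13 from Zfp712 to Zfp273, had a median of 0.27 (0.14 and 0.21) and scaled ratios of 0.91 and 1.19. Its median was 0.02 with the stricter minimum and changed sign, to -0.33, with the GC trend removed. Zfp493 was called above input (7 and 18 ChIP reads, 20 and 36 input reads) and 1 other member below, and both calls were lost with the block. Zfp456 had the highest mean log2 ratio, 1.03, and was not called, and none of the windows of the cluster was CpG-rich. Counts at gene copies such as Zfp874a and Zfp874b depend on how reads that match both were placed, which is not given in the sources used here.

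The chromosome 7 cluster from Zfp84 to Zfp146, with 14 members over 401 kb, had a lower median of -0.76. Zfp27 was called above input with 8 and 26 ChIP reads against 22 and 46 in input (1.25 ± 0.40, adjusted p = 0.009). Zfp84, Zfp566, Zfp382 and Zfp146 were called below, of which 1 kept its call with the block. Zfp382, the lowest, had 0 and 1 ChIP reads against 16 and 33 in input. Zfp568, in the same cluster, is known to silence a placental Igf2 transcript in the mouse, and with 0 and 3 ChIP reads against 13 and 30 in input it was not called (adjusted p = 0.136).

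The remaining 8 clusters had medians between -0.79 and 0.18 and at most 2 calls each. On chromosome 7, the 5 genes from Zfp768 to Zfp689 (median -0.79) had 2 below, among them Zfp689, and the 5 from Zfp579 to Zfp580 (-0.12), none with a KRAB box, had Zfp784 above. The 4 from Zfp667 to Zfp28 (-0.39) had Zfp583 above. On chromosome 17 the 9 genes from Zfp760 to Zfp40 (-0.53) had Zfp229 above and Zfp943 below, the latter not with the block (adjusted p = 0.102), and the 6 from Zfp677 to Zfp948 (-0.67) had no call. The 5 chromosome 9 genes from Zfp560 to Zfp846 (0.05) had Zfp846 above, and the chromosome 9 genes from Zfp872 to Zfp810 (0.07) and the chromosome 11 genes from Zfp354c to Zfp354b (0.18) had none.

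**Figure D4:**
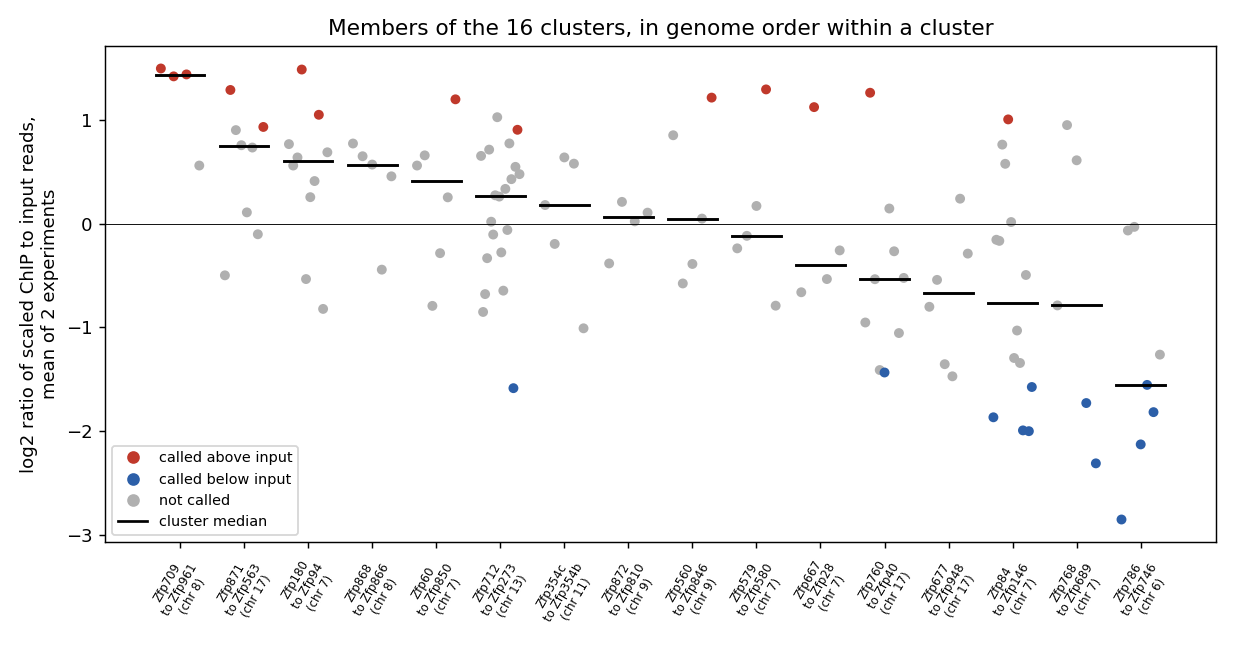
Mean log2 ratio of ChIP to input over both experiments (y axis) for every member of the 16 clusters, ordered by cluster median (x axis, first and last gene and chromosome), with members in genome order from left to right. Bars are cluster medians, which run from 1.43 on chromosome 8 to -1.55 on chromosome 6, and in 14 of the clusters the points lie on both sides of 0.

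Between clusters lay 37.2% of the variance of the log2 ratio among clustered members, and the rest lay within them. The SD within a cluster ran from 0.26 to 1.42 with a median of 0.70, against the SD of 0.50 between experiments at a member. Pairs of adjacent rows were read where both had a position and their windows at the GENCODE starts did not overlap. The 97 pairs of 2 members differed by a median of 0.57, the 375 pairs of a member and another row by 0.91, and the 19288 pairs of other rows by 0.86. The Spearman correlation of the values in a pair was 0.24 for the member pairs, 0.24 for the mixed pairs and 0.37 for the others, a description over pairs that share libraries. Paired members thus lay closer in level but were not more alike in rank, and the members as a whole also spread less (interquartile range 1.59, against 1.82 for all promoters). The 30 other rows that stood inside clusters had a median of -0.31. They include 1700049G17Rik, A530054K11Rik and 2210404O09Rik, older symbols of Zfp974, Zfp729a and Zfp995, which the choice by symbol did not take as members. Of them 6 were above (20%, against 18.6% of all promoters) and 3 below (10%, against 17%).

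Members differed by the kind of protein. A KRAB box was read from the longest open reading frame of each gene and counted where at least 12 of 37 consensus positions matched. The 184 members with a KRAB box had a median log2 ratio of 0.09 (0.21 and 0.14) with 34 called above and 16 below input, and the 155 without had -0.55 (-0.46 and -0.62) with 14 above and 35 below. The shares called above were 18.5% and 9.03%, against 18.6% of all promoters, and the shares called below were 8.70% and 22.6%, against 17% of all promoters. With the block, 26 KRAB members and 11 others were above (15.8% of all promoters), and 8 and 12 were below (8.3% of all promoters). The members without a KRAB box then no longer exceeded all promoters in calls below. The medians were in the same order in both experiments. In 4 members no protein was read.

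The promoters of both kinds also differed in CpG content, which moved with the ratio over all promoters. Windows were CpG-rich at 14 of the 184 KRAB members and 74 of the 155 others. The 89 CpG-rich members had a median of -0.98 with 3 above (3.37%) and 29 below (32.6%). All 6864 CpG-rich promoters had a median of -1.08, with 3.12% above and 32.9% below. The other 253 members had 0.05 with 46 above (18.2%) and 22 below (8.70%). All 17233 others had -0.03, with 22.9% above and 11.6% below. In windows that were not CpG-rich, the KRAB members had a median of 0.13 (34 above and 10 below of 170) and the rest -0.12 (11 above and 12 below of 81). Within CpG-rich windows the order was reversed, -1.28 for the 14 KRAB members and -0.96 for the 74 others. How far CpG content accounts for the difference by KRAB box was not tested.

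**Figure D5:**
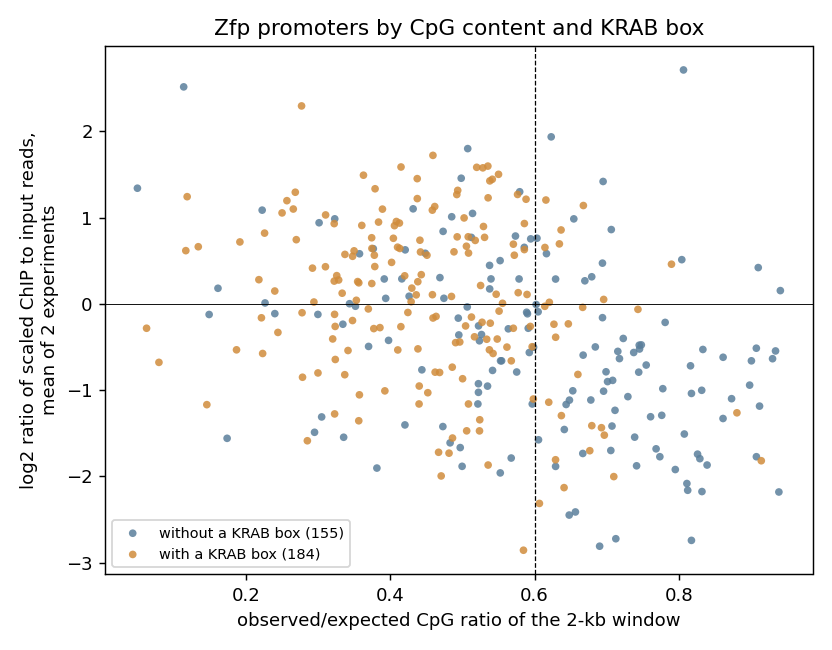
Mean log2 ratio of ChIP to input over both experiments (y axis) against the observed to expected CpG ratio of the promoter window (x axis) for Zfp promoters with and without a KRAB box. The dashed line is the ratio of 0.6 used for CpG-rich windows, and right of it most points are members without a KRAB box with log2 ratios below 0, Zfp518a at 2.71 being the highest.

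Across the 342 members with a position the log2 ratio had a Spearman correlation of -0.38 with GC content and -0.38 with the CpG ratio, against -0.54 and -0.52 over all promoters. These are descriptions over promoters of the same 4 libraries. The quartiles of the members by GC content, from low to high, had medians of 0.02, 0.28, -0.28 and -0.89. With the number of fingers the correlation was 0.15, with the repeat share of the window 0.27 and with the summed input reads 0.02. KRAB members had a median of 12 fingers and the others 7. The 50 members whose window overlaps that of another gene had a median of -0.76 (3 above, 14 below), and the 292 with a window of their own -0.11 (46 above, 37 below). The shares above were 6% and 15.8%, against 18.6% of all promoters, and the shares below 28% and 12.7%, against 17%. With the block, 3 and 35 were above (15.8% of all promoters), and 4 and 16 were below (8.3% of all promoters). The members with overlapping windows then no longer exceeded all promoters in calls below.

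Motifs of common promoter factors were searched on both strands in the 300-base RefSeq promoters. The ETS word CCGGAAG was found in 60 of 282 members (21.3%) and in 12.4% of the 16501 promoters of the table. The word GGGCGG bound by Sp1 was found in 45.0% and 49.0%, and GCGCATGCG, bound by Nrf1, in 4.61% and 2.54%. The words ACTACAA (Zfp143), AAGATGGC (YY1) and TGACGTCA (cAMP response element) were found in 6.74%, 5.32% and 4.26% of members and in 3.65%, 3.40% and 2.44% of all. No word is contained in another, though hits of different words may share bases. A match is a description of letters and not a bound site.

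The members with a well-known role, a list of 34 symbols of which 32 were in the table, had a median of -0.52, with 4 above (12.5%, against 18.6% of all promoters) and 5 below input (15.6%, against 17%). Those above were Zfp445 and Zfp42, described above, Zfp819 (13 and 30 ChIP reads, 15 and 54 input reads, 1.61 ± 0.38) and Zfp804b (14 and 29 ChIP reads, 21 and 48 input reads, 1.58 ± 0.38), the paralog of Zfp804a. Those below were Zfp91 and Zfp423, Zfp281, a factor of pluripotent cells, Zfp521, the paralog of Zfp423, and Zfp185, a LIM domain protein of the actin cytoskeleton. The calls for Zfp281, Zfp521 and Zfp185 were lost with the block (adjusted p = 0.0862, 0.065 and 0.115).

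Zfp57, the other keeper of imprints, was not called, with 8 and 11 ChIP reads against 23 and 54 in input (0.27 ± 0.45, adjusted p = 0.66). Zfp809, which silences murine leukemia proviruses in embryonic stem cells, had 12 and 21 ChIP reads against 37 and 100 in input and was not called (0.25 ± 0.37, adjusted p = 0.609). Zfp143, a ubiquitous activator, had a log2 ratio of -0.90, and Zfp598, which senses collided ribosomes, of -0.50, and neither was called. Zfp750, a factor of epidermal differentiation, had 0 and 4 ChIP reads against 23 and 31 in input and was not called (adjusted p = 0.102).

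By chromosome, the 26 members on chromosome 8 had a median of 0.51 with 8 above (30.8%) and 5 below (19.2%). The 18 on chromosome 5 had a median of 0.44 with 7 above (38.9%) and 1 below (5.56%). The 16 on chromosome 6 had a median of -1.05 with 1 above (6.25%) and 6 below (37.5%). Chromosome 7 held the most members, 85, with a median of -0.24, 12 above (14.1%) and 16 below (18.8%). Over all promoters the shares were 18.6% above and 17% below. With the block, chromosome 8 had 7 above and 5 below, and chromosome 5 had 7 above and 0 below. Chromosome 6 then had 1 above and 3 below, and chromosome 7 had 10 above and 6 below. The shares over all promoters with the block were 15.8% above and 8.3% below. The 8 members on the X chromosome, single in male cells, had a median of 0.04.

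Other zinc finger families were set beside the Zfp genes. The 37 Zbtb promoters, most of whose proteins join fingers to a BTB domain, had a median of -1.12. No finger was found in Zbtb8os. Of them 2 were above (5.41%, against 18.6% of all promoters) and 12 below input (32.4%, against 17%). The 10 Zscan and 9 Zkscan promoters, whose proteins join fingers to a SCAN domain, had medians of 0.18 (1 above, 10%) and 0.19 (2 above, 22.2%), with none below. The genes through which KRAB proteins act, 18 of 20 listed, had a median of -0.71 with 2 above (11.1%) and 5 below (27.8%). Below were Trim28, with 0 and 1 ChIP reads against 24 and 44 in input, Cbx3, Cbx5, Chd3 and Daxx, and above were Hdac1 (8 and 13 ChIP reads, 14 and 29 input reads) and Mbd1 (15 and 25 ChIP reads, 19 and 38 input reads). With the block, Trim28, Cbx5 and Mbd1 were still called (adjusted p = 0.0146, 0.0255 and 0.00137).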

How the data were processed

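H3K9me2 ChIP and input libraries of ex vivo aortic medial cells came from 2 experiments. The authors deposited raw read counts per promoter, and a ratio of the summed counts that is not scaled for library size and was not used. Per the labels, reads were trimmed with Trim Galore 0.4.2 and cutadapt 1.9.1 and aligned to GRCm38 with Bowtie2 2.2.7, and SeqMonk counted reads within 1 kb of each start. The annotation release and how duplicates were handled are not given in the sources used here. Every row has at least 21 summed input reads.

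Positions were taken from GENCODE M21 by symbol: 329 members matched by current and 13 by older symbol, and Zfp167 was not placed. GENCODE starts need not be those the authors counted around, and where windows overlap, reads are shared. KRAB boxes and fingers were read from the longest open reading frames of GENCODE transcripts. Sequences are RefSeq's for GRCm38.p6.

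ChIP was tested against input over all 26354 rows in edgeR 4.0.16 under R 4.3.3 (TMM, quasi-likelihood test), and DESeq2 1.42.0 served as an alternative. On simulated counts for all rows, calls were made at 46 of 50 promoters with a 4-fold rise, at 2 of 50 with a 2-fold rise, at 8 of 50 set to 0.25 of their level, at none of 50 set to 0.5 and at 5 of 26154 unchanged ones. These counts were drawn with a set dispersion and with few changed rows. In the real data 18.6% of rows were called above and 17% below, so the simulated shares do not give the sensitivity there. With 2 libraries a group, p-values measure only the spread between these samples. Exact 95% intervals (Clopper-Pearson) are for counting error alone, because PCR copies were not marked by molecular identifiers. The study's methods tie each ChIP to its own input, which makes the experiment number a pairing. Calls are from the fit without this pairing unless the block is named. With the block, members above input fell from 49 to 38 (11.1%, against 15.8% of all promoters). Members below fell from 51 to 20 (5.83%, against 8.3%). The differences between experiments in ChIP and in input had a correlation of 0.10 across promoters, which does not remove the pairing.

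The members and lists were chosen with earlier results of these data known. Named genes were the 10 highest and 10 lowest called members, the highest and lowest member of each cluster, and a list with known roles. The lowest member of 1 cluster is not reported here.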

Additional observations from a re-analysis of the deposited data

How the results depend on the processing

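Depth limits single promoters most: the median member has 4 and 6 ChIP reads, so the calls are sensitive to the test. Calls above input numbered 49 of 343 (14.3%, against 18.6% of all promoters). In the edgeR settings that kept at least 335 members they ranged from 38 to 49. They were 44 of 185 (23.8%, against 17.5% of all promoters) with at least 20 reads per input, of which 26 were among the 49. They were 17 (4.96%, against 11.6% of all promoters) with DESeq2, which left the adjusted p undefined for 232 members. Calls below input numbered 51 (14.9%, against 17% of all promoters). They became 20 (5.83%, against 8.3%) with the replicate block. With the stricter minimum of 20 reads per input, which tests 185 members, they were 16 (8.65%, against 12%). DESeq2 gave 0 (0.10% of all promoters), and 23 members had an unadjusted p under 0.05 with it (69 with edgeR). Scaling by library totals in place of TMM gave 40 above (11.7%, against 16.3% of all promoters) and 60 below (17.5%, against 21.5%). No edgeR fit was run without each experiment, since 1 library a group leaves no residual degrees of freedom. The median log2 ratio, -0.19, was 0.39 with a pseudocount of 5 (all promoters 0.34), -0.26 with the stricter minimum, -0.14 with the GC trend removed and -0.11 without overlapping windows, and ran from -0.16 to -0.12 when 1 experiment was left out. The median percentile, 53.5, was 59.4 with the stricter minimum and ran from 48.5 to 56.7 when 1 experiment was left out. The share in the top quartile of both experiments, 11.4%, was 18.9% with the stricter minimum (all promoters 16.8%, against 17.9%) and 14.3% with the GC trend removed (13.95%), and a single experiment placed 17.8% to 25.4% in its top quartile, against 25.2% to 25.3% of all promoters. Of the 16 cluster medians, 14 moved by more than the SD between experiments with a pseudocount of 5, and 2 to 8 did in the other settings. The pseudocount of 5 also moved the median of all promoters, from -0.31 to 0.34, so the 14 do not show a change relative to other promoters. With the GC trend removed, the largest cluster changed sign (-0.33). The excess of the KRAB members over the others, 0.64, was 0.24 in windows that are not CpG-rich and reversed to -0.32 in CpG-rich ones, a split chosen after seeing the data, as was the stricter KRAB minimum of 17 positions (0.63). Uncalled members near 0 changed sign: Zfp217 was 0.081 with DESeq2, 0.021 with the replicate block and 0.030 with autosomes only, and with library totals Zfp354c was -0.050, Zfp385a -0.10, Zfp52 -0.022 and Zfp831 -0.055. The replicate block ended the calls of 8 named members and changed no other named call, and DESeq2 ended 26. The cause was not tested.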
